A study of Mus musculus with 12 samples.

Results

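The cytosolic ribosomal protein genes are the genes whose products, together with ribosomal RNA, build the large and the small subunit of the ribosome in the cytosol. They were found by name: symbols that begin with Rpl, Rps or Rplp followed by a digit, and Rpsa, without pseudogenes, the Rps6k kinases and Rps19bp1. In this way 85 of the 32285 genes measured were chosen, by a rule that uses no measured value. They comprised 43 proteins of the large subunit, 31 of the small subunit, the 3 proteins of the ribosomal stalk and 8 paralogs, which are close copies of another member. The other 77 are called canonical below, and 83 of the 85, all 77 canonical genes and 6 paralogs, had enough counts to be tested. They lie on 19 chromosomes, with 14 on chromosome 7, and all are annotated as protein-coding genes.

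The libraries came from BM of WT C57BL6/J mice, and no transgene, deletion or treatment is named for any group. Ly6d- CLPs (common lymphoid progenitors that lack the early B-lineage surface protein Ly6d) and Flk2+ MPPs (multipotent progenitors upstream of them) were sorted from mice at 1MO and at 3MO, with 3 libraries in each of the 4 groups. The design compares the ages within each cell type, at the start of the decline in T-cell progenitors with age, and here also the cell types at each age. Both cell types were purified from each mouse, in 3 independent experiments, but nothing states whether libraries that carry the same number share a mouse or an experiment. RNA was polyadenylated and measured in bulk, so a higher share of ribosomal protein mRNA in every cell and a larger number of cells rich in it cannot be told apart.

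A ribosome carries 1 copy of nearly every ribosomal protein, and cells make the proteins in matched amounts. Most of their mRNAs are short and abundant and begin with a run of pyrimidines at the cap, through which mTOR and its effector Larp1 control their translation and stability. Blood progenitors are sensitive to their dose: loss of a single copy of RPS19 and of several other members causes Diamond-Blackfan anaemia, and Rpl22 is needed for normal development of alpha-beta T cells.

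Pyrimidine runs near the start of transcription were searched for in the promoters. A promoter sequence was present in RefSeq for 65 of the 85 members. A run of at least 8 pyrimidines (C or T) on the sense strand within 30 bases of a start was found in 35 of these 65 (53.8%), against 25.8% of 27025 genes with a promoter and 25.8% of the tested genes that were not members. The letters CCGGAAG, the core of the site bound by ETS factors such as GABP, stood on either strand of the promoter (250 bases before to 50 after the start) in 26 of the 65 (40.0%), against 9.93% of all genes and 20.2% of the tested genes that were not members. Below are 30 bases, 5′ to 3′, from 20 bases before the start to 10 bases from it, with runs of at least 8 pyrimidines in capitals. The runs of Rpl18, Rpl22l1 and Rps27 extend past the start given by RefSeq, while those of Rpl4, Rpl39 and Rps27l end before it. In the GENCODE M21 annotation the gene of Rpl4 begins at chr9:64173375, inside its run, and that of Rpl39 begins upstream of the window. Whether the runs of Rpl4 and Rpl39 lie in the mRNA thus depends on the start used. Rpl4 was the member with the most counts, Rpl18 and Rpl39 had the smallest p for age in Ly6d- CLPs, Rps27 and Rps27l are a canonical gene and its paralog, Rpl22l1 and Rpl7l1 are paralogs, and Rpl10 is a canonical gene with no such run in the window. They lie on GRCm38.p6 at chr9:64173367-64173396 (Rpl4, plus strand), chr7:45718051-45718080 (Rpl18, plus), chrX:37085213-37085242 (Rpl39, minus), chrX:74270796-74270825 (Rpl10, plus), chr3:90213639-90213668 (Rps27, minus), chr9:66946066-66946095 (Rps27l, plus, the first start listed), chr3:28805488-28805517 (Rpl22l1, plus) and chr17:46782647-46782676 (Rpl7l1, minus).
Rpl4: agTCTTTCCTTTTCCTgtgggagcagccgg
Rpl18: acgagtgcgtctcgcaggccgCTCTTTCCC
Rpl39: CCCCCCCTaagctccgcctctagcgacttc
Rpl10: ctatggttgttacagtggaagataggccgc
Rps27: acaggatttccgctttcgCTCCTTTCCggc
Rps27l: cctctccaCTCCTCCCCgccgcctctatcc
Rpl22l1: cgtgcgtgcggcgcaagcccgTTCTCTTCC
Rpl7l1: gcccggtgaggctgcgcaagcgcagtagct

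The libraries held between 8889083 and 20677785 estimated counts, and no pair of libraries was identical. The sorted cell types carried their defining genes. The 7 lymphoid progenitor markers summed to 6244 to 7392 CPM (counts scaled to 1000000 per library, with TMM factors as in the test) in Ly6d- CLPs and to 2256 to 3062 CPM in Flk2+ MPPs, and the 8 multipotent markers to 884 to 1000 CPM and 1906 to 2195 CPM respectively. Among markers of other cells, the 5 stromal genes stood at 203 to 577 CPM in 1MO Ly6d- CLPs and at 0 to 78.3 CPM in the other 3 groups. The 8 B lineage markers summed to 90.3 to 124 CPM in 1MO Ly6d- CLPs, to 42.8 to 67.3 CPM in 3MO Ly6d- CLPs and to 8.99 to 21.2 CPM in Flk2+ MPPs. The 7 T lineage markers summed to 32.7 to 40.2 CPM in 1MO and 24.6 to 27.1 CPM in 3MO Ly6d- CLPs, and to 16.2 to 23.9 CPM in Flk2+ MPPs. The 8 myeloid markers overlapped between the ages in both cell types, at 687 to 1459 CPM. Hemoglobin genes held at most 0.013% of the counts in any library, with the highest level of each group in the library numbered 3.

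The summed level of the ribosomal protein genes varied widely between libraries of the same group in 3 of the 4 groups. The 85 genes together held 2.21%, 3.76% and 4.66% of the counts in the 1MO Ly6d- CLPs numbered 1, 2 and 3, and 2.38%, 3.01% and 2.63% in the 3MO Ly6d- CLPs. In the 1MO Flk2+ MPPs they held 3.17%, 2.75% and 5.43%, and in the 3MO Flk2+ MPPs 2.00%, 3.36% and 4.71%. The lowest and the highest library were therefore both Flk2+ MPPs, the libraries numbered 3 were the highest in 3 of the 4 groups and those numbered 1 the lowest in 3 of the 4, and all groups overlapped.

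Group means were 3.54% ± 1.24 (SD, n = 3) in 1MO Ly6d- CLPs, 2.67% ± 0.32 in 3MO Ly6d- CLPs, 3.78% ± 1.44 in 1MO Flk2+ MPPs and 3.36% ± 1.36 in 3MO Flk2+ MPPs. On the log2 scale of summed CPM, 3MO minus 1MO came to -0.35 in Ly6d- CLPs and -0.18 in Flk2+ MPPs, and Ly6d- CLPs minus Flk2+ MPPs to -0.02 at 1MO and -0.18 at 3MO. Each of these differences was smaller than the SD between libraries of a group pooled over the 4 groups, 0.48, although the groups spread unequally and the 3MO Ly6d- CLPs had the lowest mean with the smallest SD. Across the 12 libraries the share ranged 2.72-fold.

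**Figure D1:**
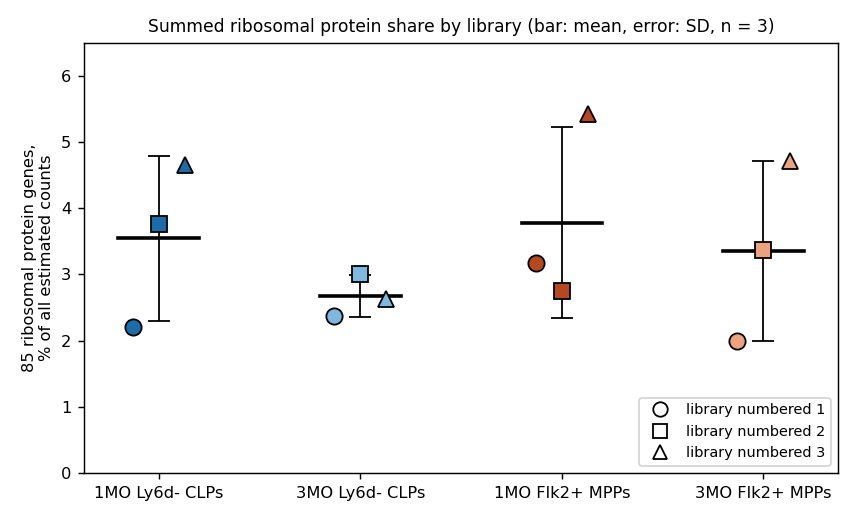
Share of all estimated counts held by the 85 cytosolic ribosomal protein genes (y axis, %) in each of the 12 libraries, by group (x axis). Symbols mark the library number, thick lines the group mean and error bars the SD (n = 3). The groups overlap, from 2.00% in 1 of the 3MO Flk2+ MPPs to 5.43% in 1 of the 1MO Flk2+ MPPs.

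The spread was one of the whole set. For each tested member the log2 CPM in a library was set against the mean of that gene over the 12 libraries, and the median over the 83 members ran from -0.74 in the 3MO Flk2+ MPPs numbered 1 to 0.76 in the 1MO Flk2+ MPPs numbered 3. All 83 members lay above their own mean in the 1MO Ly6d- CLPs numbered 2 and 3, and 0 of 83 did in the 3MO Flk2+ MPPs numbered 1. Of the 77 canonical members, 64 had their lowest level in that last library and 64 their highest in the 1MO Flk2+ MPPs numbered 3.

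Members varied more within a group than most other genes of at least 50 CPM, a set not matched to the members in abundance. The SD of log2 CPM between libraries of a group, pooled over groups, had a median of 0.53 over the 83 members and of 0.24 over 4623 other genes with a mean of at least 50 CPM, and 2.55% of those genes exceeded the members' median. It was smallest in 3MO Ly6d- CLPs, with a median of 0.18 over the members, against 0.58 in 1MO Ly6d- CLPs, 0.54 in 1MO Flk2+ MPPs and 0.65 in 3MO Flk2+ MPPs. Counting error was far smaller, since the mean count of a canonical member implies a Poisson coefficient of variation with a median of 1.36%.

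**Figure D2:**
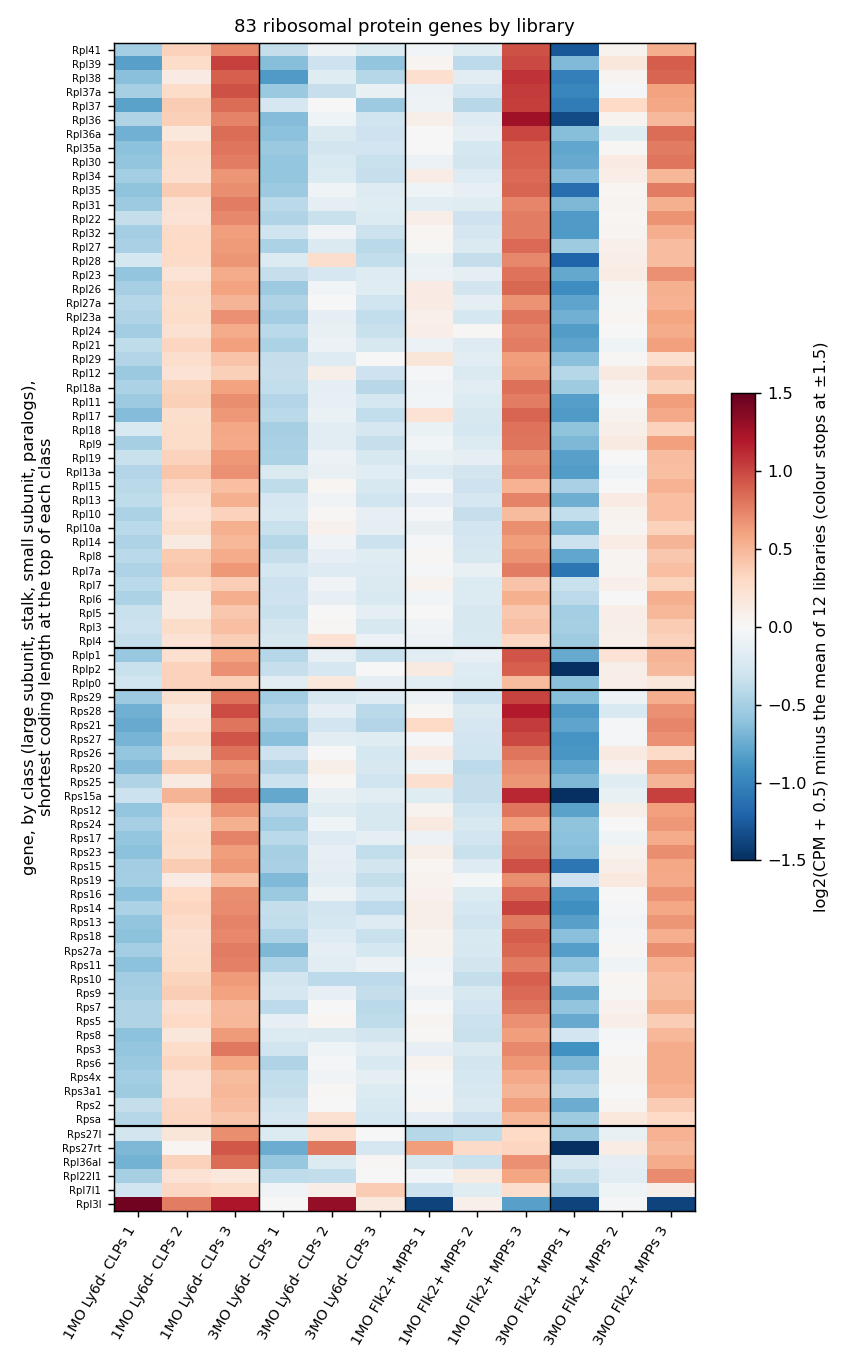
Level of each of the 83 tested members (rows) in each library (columns), as log2(CPM + 0.5) minus the mean over the 12 libraries (colour), an offset that differs from the prior count of 2 behind the log2 CPM in the text. Genes are ordered by class and then by coding length, with the shortest at the top of each class. Whole columns share a colour: the 3MO Flk2+ MPPs numbered 1 are low throughout, the 1MO Ly6d- CLPs and 1MO Flk2+ MPPs numbered 3 are high, and Rpl3l, in the bottom row, has another pattern, on 0 to 50 counts a library.

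Relative to each other the canonical members kept close proportions. The coefficient of variation of a member over the 12 libraries had a median of 34.8% (20.2% to 52.2%) as CPM, but of 8.53% (3.55% to 24.3%) as a share of the ribosomal protein counts, and it was smaller as a share in 77 of 77. The ratio of large subunit to small subunit counts stayed between 1.22 and 1.35. It averaged 1.28 ± 0.06 (SD, n = 3) in 1MO Ly6d- CLPs, 1.29 ± 0.003 in 3MO Ly6d- CLPs, 1.26 ± 0.04 in 1MO Flk2+ MPPs and 1.27 ± 0.03 in 3MO Flk2+ MPPs. Rps6, the protein phosphorylated by S6 kinase downstream of mTOR, held the steadiest place, at 2.51% of the set with a coefficient of variation of 3.55%.

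Short genes swung further than long ones. The fold between the lowest and the highest library had a median of 3.27 in the 26 canonical members with a coding length of 75 to 405 bases, 2.91 in the 25 of 405 to 564 bases and 2.45 in the 26 of 576 to 1257 bases. Across the 77 genes, which share these libraries and are not independent, the Spearman correlation of coding length with that fold was -0.72. Coding length also followed mean CPM in these genes (Spearman correlation 0.84), and the part of each in the swing was not tested. Rps15a and Rpl39 were among the least steady members, with coefficients of variation of 24.3% and 20.0% as a share of the set. Rps15a, of the small subunit, held 0.376% of ribosomal protein counts in the 3MO Flk2+ MPPs numbered 1 and 0.963% in those numbered 3.

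Other genes, grouped by transcript length, followed the members in the shorter classes and ran against them in the longer ones. The median deviation of 510 other genes with transcripts of up to 800 bases ran from -0.58 in the 3MO Flk2+ MPPs numbered 1 to 0.56 in the 1MO Flk2+ MPPs numbered 3, while that of 1556 genes of over 6000 bases ran from 0.14 to -0.21. The 29 short genes with a mean of at least 50 CPM, nearer to the members in abundance, ran less far, from -0.43 in the 3MO Flk2+ MPPs numbered 1 to 0.39 in the 1MO Ly6d- CLPs numbered 3, with 0.29 in the 1MO Flk2+ MPPs numbered 3, where the members stood at 0.76. Their r with the summed level was 0.97. Over the 12 libraries, the deviation of each full class followed the log2 summed level of the members with r = 0.97 up to 800 bases, 0.98 at 800 to 1500, 0.94 at 1500 to 3000, -0.86 at 3000 to 6000 and -0.96 over 6000 bases. These r describe 12 libraries whose values share 1 total each. The part of transcript length, RNA quality or library preparation in the levels of the ribosomal protein genes was not tested.

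**Figure D3:**
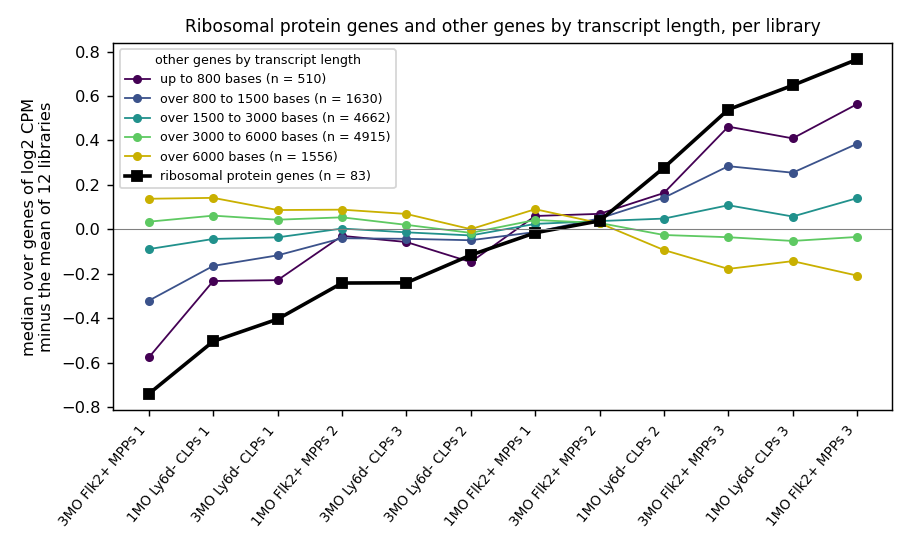
Median over genes of log2 CPM minus the mean of the 12 libraries (y axis), for the 83 ribosomal protein genes (squares) and for other tested genes in 5 classes of transcript length (circles), with libraries ordered by the summed level of the ribosomal protein genes (x axis). The shortest class climbs with the ribosomal protein genes, from -0.58 to 0.56, and the longest falls from about 0.14 to -0.21.

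Genes that are not members were ranked by how closely they followed the summed level. The canonical members correlated with the log2 summed level at a median r of 0.98 (0.91 to 1.00) over the 12 libraries, where each member is part of the sum. The genes that are not members, 9230 with a mean of at least 10 CPM, had a median r of -0.004. The 5 highest among the latter were Tpt1 (0.98), a translationally controlled protein, Fau (0.98), which encodes a small subunit protein fused to a ubiquitin-like domain, Cox7a2l (0.98), an assembly factor of respiratory supercomplexes, Eef1b2 (0.98), a subunit of elongation factor 1, and Atp5e (0.97), a subunit of ATP synthase. Fau ran from 95.9 CPM in the 3MO Flk2+ MPPs numbered 1 to 334 CPM in the 1MO Flk2+ MPPs numbered 3. Of the genes that are not members 98 had an r over 0.9, with a median transcript length of 1182 bases, and 54 an r under -0.9, with a median of 7450 bases, against 3228 over all genes compared.

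Single levels spanned a wide range that followed length. Rpl4, an RNA-binding protein of the large subunit, had the highest mean, 1443 CPM, followed by Rpl3, near the peptidyl transferase centre, at 1076 CPM and by Rpsa, a small subunit protein also known as the laminin receptor, at 1068 CPM. The lowest canonical member was Rpl38 at 97.2 CPM. Coding length and mean CPM had a Spearman correlation of 0.84 across the 77 canonical genes.

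Divided by coding length, most of the canonical members came close together, with a median of 784 CPM per kb. Rpl41, the smallest member with 75 coding bases, stood at the top with 3932 CPM per kb, a value that untranslated sequence can inflate in so short a gene. Rps24 followed with 1421 and Rps4x with 1250 CPM per kb, while Rpl36 was the lowest canonical member with 316 CPM per kb. Untranslated sequence can also raise the value of Rps24, which has 399 coding bases in a transcript of 1613 bases. Length and CPM per kb had a Spearman correlation of 0.24.

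Rpl4 measured 1106, 1647 and 1835 CPM in the 1MO Ly6d- CLPs numbered 1, 2 and 3, and 1200, 1643 and 1327 CPM in the 3MO Ly6d- CLPs. It measured 1331, 1205 and 1759 CPM in the 1MO Flk2+ MPPs, and 975, 1490 and 1797 CPM in the 3MO Flk2+ MPPs. All 4 groups overlapped.

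For age in Ly6d- CLPs nearly all members had a lower mean at 3MO, but none passed the test. Tested by edgeR (quasi-likelihood, adjusted over 13367 genes by Benjamini-Hochberg), 0 of 83 members were called at an adjusted p under 0.05, where 0.0748% of all genes were, and the smallest adjusted p of a member was 0.88. At an unadjusted p under 0.05 edgeR also found 0 members, against 5.9% of all genes, and at an adjusted p under 0.05 DESeq2 called 0, against 0.475% of the genes to which it gave one. The log2 fold change (3MO over 1MO) was negative in 82 of 83, with a median of -0.47 (-0.86 to 0.03) against -0.01 over all genes tested, and the standard error of a member had a median of 0.33. For 0 members did the groups not overlap, where 6.13% of all genes were lower and 4.51% higher without overlap. The median was -0.19 without the 1MO Ly6d- CLPs numbered 3 and -0.73 without those numbered 1.

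By class of protein, the medians were -0.49 in the large subunit, -0.47 in the small subunit, -0.46 in the stalk and -0.23 in the tested paralogs, and the differences between classes were not tested. Among other genes the same contrast had a median of -0.28 for transcripts up to 800 bases, -0.15 at 800 to 1500, -0.04 at 1500 to 3000, 0.02 at 3000 to 6000 and 0.09 over 6000 bases. Scaled to the summed members instead of by TMM, an alternative added after seeing the data, the members' median was -0.05 and that of all genes moved from -0.01 to 0.27. Such a scaling holds the members' change near 0 by construction. Markers of other cells moved with the same contrast. The 1MO Ly6d- CLPs held the stromal markers given above, and the summed B lineage and T lineage markers were each higher in all 3 of the 1MO than in all 3 of the 3MO Ly6d- CLPs. All 7 tested B lineage genes had negative log2 fold changes (median -1.41), as did 3 of the 4 tested T lineage genes (median over the 4 -0.56), and edgeR called 0 in either list, against 0.0748% of all genes. Of the 3 tested stromal genes edgeR called 2 lower at 3MO. These were Col1a2 (log2 fold change -7.52, SE 0.95, adjusted p = 0.0038) and Col1a1 (-8.75, SE 1.45, adjusted p = 0.034). Among the lymphoid progenitor markers Rag1, which cuts antigen receptor genes for their rearrangement, was called lower at 3MO (log2 fold change -1.44, SE 0.25, adjusted p = 0.043 in edgeR). The part of these cells in the shift of the ribosomal protein genes was not tested.

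Rpl39 (ENSMUSG00000079641, chrX:37082520-37085402, minus strand), a short protein in the wall of the exit tunnel, had the smallest p of the members. It measured 93.8, 201 and 337 CPM in the 1MO Ly6d- CLPs numbered 1, 2 and 3, and 106, 134 and 109 CPM in the 3MO Ly6d- CLPs. The 3MO values lay within the range of the 1MO values, and the log2 fold change of -0.86 (SE 0.43) had an adjusted p of 0.88 in edgeR. Rpl18, of the large subunit, measured 242, 344 and 425 CPM at 1MO and 201, 251 and 237 CPM at 3MO, and its log2 fold change was -0.55 (SE 0.29, adjusted p = 0.89 in edgeR). Rpl7l1, a paralog of Rpl7, was the single member with a positive value, 0.03 (SE 0.22, adjusted p = 0.99).

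In Flk2+ MPPs the age difference was called for no member either. In the same edgeR test 0 of 83 were called, where 0.0224% of all genes were, and the smallest adjusted p was 1.0. An unadjusted p under 0.05 was found for 0 members and 3.48% of all genes, and DESeq2 called 0 members and 0.265% of all genes with an adjusted p. The log2 fold change was negative in 80 of 83, with a median of -0.21 (-0.62 to 0.15) against -0.01 over all genes. The median rested on single libraries, at 0.17 without the 1MO Flk2+ MPPs numbered 3 and 0.07 without the 3MO Flk2+ MPPs numbered 1. No member separated the ages, where 4.61% of all genes were lower and 3.96% higher without overlap. Other genes had a median age difference of -0.13 for transcripts up to 800 bases and 0.03 over 6000 bases.

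Rpl36 (ENSMUSG00000057863, chr17:56613416-56614243, plus strand), of the large subunit, stood at 96.0, 78.5 and 217 CPM in the 1MO Flk2+ MPPs numbered 1, 2 and 3, and at 35.2, 93.0 and 126 CPM in the 3MO Flk2+ MPPs. The groups overlapped, with a log2 fold change of -0.62 (SE 0.43, adjusted p = 1.0 in edgeR). Rpl29 had -0.32 (SE 0.26), and of the 3 members with positive values those with the smallest p were Rps27l, a paralog induced by p53, at 0.15 (SE 0.33) and Rpl10, which is mutated in some T-cell leukaemias and takes part in subunit joining, at 0.01 (SE 0.25).

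The interaction asks whether age acted differently in the 2 cell types. For 0 of 83 members did the edgeR interaction reach an adjusted p under 0.05, where 0.0% of all genes did, and the smallest unadjusted p of a member was 0.21, where 3.21% of all genes had one under 0.05. DESeq2 called 0 members and 0.0396% of all genes. The interaction (age difference in Ly6d- CLPs minus that in Flk2+ MPPs) had a median of -0.27 (-0.80 to 0.41, median SE 0.47) over the members and of -0.01 over all genes. Rpl39 had -0.80 (SE 0.61), Rpl30 -0.55 (SE 0.54), Rpl7l1 0.11 (SE 0.31) and Rps27rt 0.41 (SE 0.93). The median was 0.00 without the 1MO Ly6d- CLPs numbered 3 and 0.07 without the 3MO Flk2+ MPPs numbered 3.

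Between the cell types, where many other genes differed, no ribosomal protein gene was called. At 1MO 5.38% of all genes and 0 of 83 members passed edgeR's adjusted p under 0.05, and the log2 fold change of Ly6d- CLPs over Flk2+ MPPs had a median of -0.03 (-0.26 to 2.73) over the members and of -0.02 over all genes. At 3MO 6.07% of all genes and 0 of 83 members passed, with a median of -0.30 (-0.79 to 2.44) over the members and of -0.03 over all genes. Other genes with transcripts up to 800 bases had medians of -0.07 (1MO) and -0.20 (3MO), and those over 6000 bases -0.01 and 0.05. No member had an unadjusted p under 0.05 in edgeR at either age, against 15.8% of all genes at 1MO and 19% at 3MO. DESeq2 called 0 members at both ages, against 8.85% and 9.65% of the genes to which it gave an adjusted p. At 1MO, 1 member, Rpl3l, had an unadjusted p under 0.05 in DESeq2, as did 14% of all genes. Without the 4 libraries numbered 3, left out after seeing the data, the medians were 0.07 at 1MO and 0.05 at 3MO. Single libraries also set the sign, since the median at 1MO was 0.33 without the 1MO Flk2+ MPPs numbered 3, and that at 3MO was 0.05 without the 3MO Flk2+ MPPs numbered 3.

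**Figure D4:**
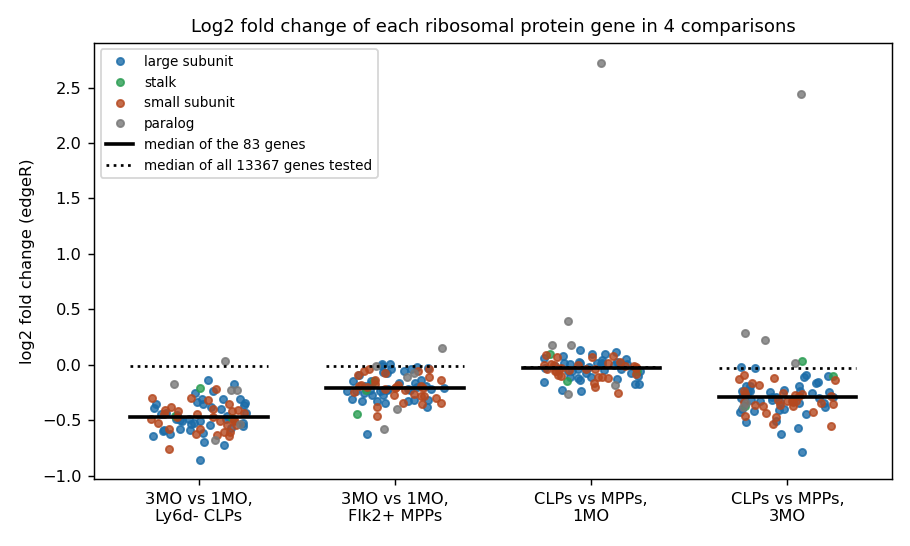
Log2 fold change (y axis, edgeR) of each of the 83 tested members in 4 comparisons (x axis), coloured by class. Solid lines mark the median of the members and dotted lines the median of all 13367 genes tested. The members lie below the other genes at 3MO in Ly6d- CLPs (medians -0.47 and -0.01), and the points near 2.73 and 2.44 are Rpl3l.

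Rps19 (ENSMUSG00000040952, chr7:24884371-24889806, plus strand), a small subunit protein and the gene most often affected in Diamond-Blackfan anaemia, had the smallest p among the members between cell types at 3MO. It measured 174, 246 and 214 CPM in the 3MO Ly6d- CLPs numbered 1, 2 and 3, and 220, 303 and 408 CPM in the 3MO Flk2+ MPPs. The groups overlapped, and the log2 fold change of -0.55 (SE 0.27) had an adjusted p of 0.28 in edgeR. At 1MO it was -0.20 (SE 0.27, adjusted p = 0.85). Rpl39 had -0.79 (SE 0.43, adjusted p = 0.36) at 3MO.

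The stalk proteins bind and activate the elongation factors. Rplp0, the base of the stalk, averaged 1124 ± 268 CPM (SD, n = 3) in 1MO Ly6d- CLPs, 972 ± 123 in 3MO Ly6d- CLPs, 1052 ± 292 in 1MO Flk2+ MPPs and 953 ± 262 in 3MO Flk2+ MPPs. Rplp1 and Rplp2, which attach to it, averaged 370 and 193 CPM over the 12 libraries. In Ly6d- CLPs the age difference was -0.21 (SE 0.24) for Rplp0, -0.46 (SE 0.34) for Rplp1 and -0.48 (SE 0.39) for Rplp2 on the log2 scale, and none was called. Rplp2 was lowest in the 3MO Flk2+ MPPs numbered 1, at 62.1 CPM, and highest in the 1MO Flk2+ MPPs numbered 3, at 332 CPM.

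Paralogs stood below their partner genes in every library. Per kb of coding sequence, Rpl36al averaged 168 CPM against 495 for Rpl36a, Rpl22l1 135 against 632 for Rpl22, Rpl7l1 130 against 805 for Rpl7, and Rps27l 111 against 717 for Rps27. Reads shared between such near copies, and with processed pseudogenes of the family, were divided by the authors' quantification, so each split is an estimate. The ratios below are given without a test.

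Rpl36al came closest to its partner, with 35.1%, 39.9% and 34.8% of the CPM of Rpl36a in the 1MO Ly6d- CLPs numbered 1, 2 and 3, and 29.5%, 30.7% and 28.2% in the 1MO Flk2+ MPPs. At 3MO it held 35.9%, 35.2% and 43.8% in Ly6d- CLPs, and 46.3%, 35.7% and 28.7% in Flk2+ MPPs. The level of Rpl36al itself overlapped between the cell types at both ages.

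Rpl22l1 regulates haematopoiesis together with Rpl22 and takes its place in the ribosome when Rpl22 is lost. It held 14.1% to 20.9% of the CPM of Rpl22 in 1MO Ly6d- CLPs, 20.5% to 24.3% in 3MO Ly6d- CLPs, 18.6% to 28.6% in 1MO Flk2+ MPPs and 18.4% to 29.4% in 3MO Flk2+ MPPs. All of these ranges overlapped. Rpl22 itself averaged 274 ± 100 and 182 ± 15.6 CPM (SD, n = 3) in 1MO and 3MO Ly6d- CLPs, and 272 ± 105 and 242 ± 119 CPM in 1MO and 3MO Flk2+ MPPs.

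Rpl7l1, a nucleolar relative of Rpl7 in ribosome assembly, followed the other members least closely of the abundant paralogs, with r = 0.68 to the summed level over the 12 libraries against 0.82 for Rpl22l1, 0.84 for Rps27l and 0.90 for Rpl36al. It held 15.8%, 15.1% and 13.7% of the CPM of Rpl7 in the 1MO Ly6d- CLPs numbered 1, 2 and 3, and 17.7%, 16.3% and 22.3% in the 3MO Ly6d- CLPs. In the 1MO Flk2+ MPPs it held 11.3%, 15.0% and 13.1%, and in the 3MO Flk2+ MPPs 13.2%, 13.3% and 12.5%. Rpl7l1 itself was called in none of the comparisons and overlapped between groups in each.

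Rps27l held 10.1% to 22.1% of the CPM of Rps27, with group means of 17.0% in 1MO Ly6d- CLPs, 20.9% in 3MO Ly6d- CLPs, 12.6% in 1MO Flk2+ MPPs and 16.8% in 3MO Flk2+ MPPs. Its log2 fold change between cell types at 1MO was 0.39 (SE 0.33, adjusted p = 0.69 in edgeR). Rps27rt, a retrogene of Rps27, had 11 to 187 counts and at most 7.05% of the CPM of Rps27.

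**Figure D5:**
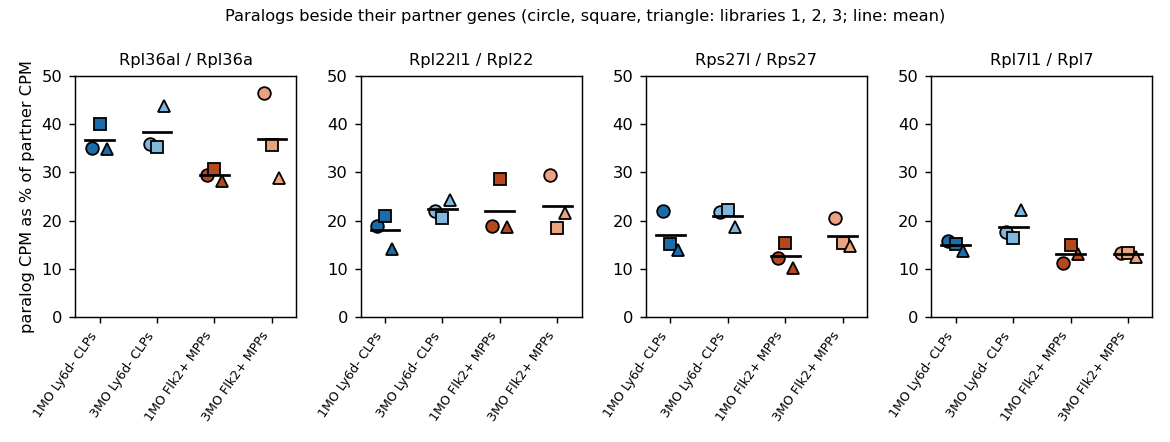
CPM of 4 paralogs as a percentage of the CPM of the partner gene (y axis) in each library, by group (x axis), with the mean as a line (n = 3). Rpl36al lies between 28.2% and 46.3% of Rpl36a, and Rpl7l1 reaches its highest values, 16.3% to 22.3% of Rpl7, in 3MO Ly6d- CLPs.

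Rpl3l (ENSMUSG00000002500, chr17:24727820-24736143, plus strand), the form of Rpl3 typical of striated muscle, was the single member whose cell types did not overlap at either age. It had 34, 35 and 40 counts in the 1MO Ly6d- CLPs numbered 1, 2 and 3, and 0, 8 and 4 counts in the 1MO Flk2+ MPPs. At 3MO it had 8, 50 and 12 counts in Ly6d- CLPs and 0, 11 and 0 counts in Flk2+ MPPs. In CPM the Ly6d- CLPs were above the Flk2+ MPPs at both ages, by a narrow margin at 3MO, where the lowest of the Ly6d- CLPs had 0.807 CPM and the highest of the Flk2+ MPPs 0.791 CPM.

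The log2 fold change of Rpl3l was 2.73 (SE 1.58) at 1MO and 2.44 (SE 1.57) at 3MO, with adjusted p of 0.48 and 0.46 in edgeR. Rpl3l passed the filter on low counts through its counts in Ly6d- CLPs, where it is higher. Its difference between cell types, and the lack of overlap, are therefore not independent of that filter. Being higher without overlap was shared by 11.1% of all genes at 1MO and 10.1% at 3MO, and 1 of 83 members showed it. Being lower without overlap held for 0 members, against 13.8% and 11.7% of all genes. The level stayed at or below 0.365% of that of Rpl3 in every library. The estimate at 3MO was 7.37 without the 3MO Flk2+ MPPs numbered 2, which left that group without counts, and 1.66 without the 3MO Ly6d- CLPs numbered 2.

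Rpl10l and Rpl39l, both typical of the testis, were not tested. Rpl10l was at 0 in all 12 libraries. Rpl39l was at 0 in 10 of 12 and had at most 4 counts.

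Genes that act with the ribosomal proteins followed them to differing extents. Of 78 mitochondrial ribosomal protein genes, which build the separate ribosome of mitochondria, 0 were called for age, where 0.0748% of all genes were in Ly6d- CLPs and 0.0224% in Flk2+ MPPs. Between cell types at 3MO, where 6.07% of all genes were called, 1 of them passed: Mrpl48 was lower in Ly6d- CLPs than in Flk2+ MPPs (log2 fold change -0.97, SE 0.27, adjusted p = 0.047 in edgeR). Their summed log2 level followed that of the members with r = 0.97 over the 12 libraries.

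The 12 elongation and termination factors had r = 0.93, the 34 initiation factors r = 0.66, and 0 of either list was called in the 5 comparisons, against 5.38% and 6.07% of all genes between cell types and at most 0.0748% for age and the interaction. Elongation factors had a median age difference of -0.18 in Ly6d- CLPs and -0.02 in Flk2+ MPPs, and initiation factors of -0.13 and -0.03. Eef2k, the kinase that inhibits elongation factor 2, and Etf1, a release factor, had the smallest p of the first list, and Eif4g2 and Eif3b of the second, all for the cell type.

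The 54 ribosome biogenesis genes, which process ribosomal RNA and assemble the subunits, were steadier than the members, with a sum between 6765 and 8168 CPM and r = 0.36. Of these, 1 was called, against 6.07% of all genes in that comparison: Tcof1, which supports transcription of ribosomal RNA genes, was higher in Ly6d- CLPs at 3MO (log2 fold change 0.70, SE 0.16, adjusted p = 0.014 in edgeR). Nmd3, an export adaptor of the large subunit, had an age difference of -0.61 (SE 0.28, adjusted p = 0.84) in Ly6d- CLPs. Of 20 regulators tied to mTOR and Myc, 1 was called, against 5.38% of all genes in that comparison: Mycn, a Myc family transcription factor, was lower in Ly6d- CLPs than in Flk2+ MPPs at 1MO, at 27.2 ± 4.09 against 90.7 ± 18.0 CPM (SD, n = 3; log2 fold change -1.74, SE 0.21, adjusted p = 1.1e-04 in edgeR). At 3MO it was at 39.9 ± 1.26 CPM in Ly6d- CLPs and 38.3 ± 4.75 CPM in Flk2+ MPPs (log2 fold change 0.06, SE 0.21, adjusted p = 0.92 in edgeR), and its age difference in Flk2+ MPPs was -1.24 (SE 0.21, adjusted p = 0.078). The summed level of the 20 regulators had r = -0.62 with that of the members.

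Signs of other cells moved with the members in part. The 8 erythroid markers summed to 12.6 to 157 CPM, were highest in the library numbered 3 of each group, and had r = 0.68 with the members. The 3MO Ly6d- CLPs numbered 3 had a hemoglobin share of 0.008% and a ribosomal protein share of 2.63%, below that of the library numbered 2. Mitochondrially encoded transcripts took 1.30% of the counts in the 3MO Flk2+ MPPs numbered 1, the lowest share, and 2.23% in those numbered 3, the highest. Over the 12 libraries the log2 of this share had r = 0.85 with the log2 summed level of the members, 2 measures that share 1 total in each library. The part of mitochondrial transcripts, or of erythroid cells or their RNA, in the ribosomal protein levels was not tested.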

How the data were processed

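RNA-seq of 12 libraries was analysed from a single table. The authors deposited estimated counts for each gene, corrected for the mean length of its transcripts but not for sequencing depth, made with FastQC, UMI-tools, Trim Galore, SortMeRNA, STAR v2.7.10b and Salmon on mm10. The annotation release is not given in the sources used here. All columns matched a library by name.

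Estimated counts were rounded and fitted with edgeR 4.0.16 in R 4.3.3 (filterByExpr, TMM, quasi-likelihood F test, 4 groups in 1 fit, Benjamini-Hochberg over 13367 genes, called at 0.05). DESeq2 1.42.0 was an alternative. CPM are TMM scaled, and log2 CPM has a prior count of 2. Replicates are separate libraries of a group, and p-values measure the spread between these libraries, which may in part be technical. No p was computed over the set. The fitting code was tested on simulated data.

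Coordinates of genes span the whole gene in GENCODE M21 (GRCm38), which held all 85 members. Coding and transcript lengths come from its APPRIS principal transcript, the longest where there were several. Start sites come from RefSeq.

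The members and lists were chosen with earlier results of these data known. Named members are the 2 with the smallest p in each direction of a comparison, the 3 highest and lowest by mean CPM, the paralogs with partners and the stalk. Rps15a, Rps6, Rpl38, Rpl41, Rps24 and Rps4x were named after their values were seen. Of each other list the 2 genes with the smallest p were eligible. The library totals limit precision at low counts only, and intervals of counting error were far below the spread between libraries. A list of ribosomal proteins outside the naming rule is not reported here.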

Additional observations from a re-analysis of the deposited data

How the results depend on the processing

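The number of members called stayed at 0 in all 5 comparisons under every alternative run: other scalings, one of which, to the summed members, holds their change near 0 by construction, DESeq2, no filter or a stricter one on low counts, libraries thinned to the smallest total, fits of only the libraries compared, and each library left out. Leaving that scaling aside, the members' median log2 fold change ranged from -0.50 to -0.20 for age in Ly6d- CLPs across alternatives and from -0.73 to -0.19 with a library left out, and for age in Flk2+ MPPs from -0.24 to -0.18 and from -0.54 to 0.17. At 1MO the cell type median ranged from -0.12 to 0.07 and from -0.31 to 0.33, at 3MO from -0.37 to 0.05 and from -0.55 to 0.05, and the interaction from -0.29 to -0.03 and from -0.63 to 0.07. No source says that equal library numbers mark the same mouse or experiment. The correlations of deviations between libraries of equal number ran from -0.03 to 0.21 and were not over 0.1 for every pair, although the members' median deviation from the group mean was negative in the library numbered 1 of every group, from -0.68 to -0.16. With the replicate block the median was -0.37 for age in Ly6d- CLPs and -0.24 in Flk2+ MPPs, and with a block for each age and number the cell type median was -0.04 at 1MO and -0.21 at 3MO. With either block 0 members were called.

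Single members turned direction, most of them from values near 0 but also Rps27rt, from 0.41 for the interaction, and Rps19, from -0.20 for cell type at 1MO, and the cause was not tested. Rpl10 for age in Flk2+ MPPs was -0.0095 with the replicate block and -0.22 to 0.26 with a library left out. Rpl7l1 without the 4 libraries numbered 3 was -0.024 for age in Ly6d- CLPs and -0.0088 for the interaction, with ranges of -0.14 to 0.14 and -0.090 to 0.24 with a library left out. With a library left out Rps27l ranged from -0.19 to 0.43 for age in Flk2+ MPPs, Rps27rt from -0.21 to 0.98 for the interaction and Rps19 from -0.44 to 0.066 for cell type at 1MO. Counts were low for Rpl3l (0 to 50), Rps27rt (11 to 187) and Rpl39l (0 to 4), and Rpl10l was at 0 in all 12 libraries. Whether depth limited these genes was not tested.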
